A study of Arabidopsis thaliana with 12 samples.

Results

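Drying is the last step of seed maturation, and this step was compared between 2 genotypes of Arabidopsis thaliana, named KD and WT in the labels. The quantity is a difference of differences, called the interaction here. It is the change from 16 days after flowering (16DAF) to the dry seed in KD, minus the same change in WT. The change between these 2 stages is called drying below, and anything else that altered between them is part of it. The interaction used 8 of the 12 Affymetrix arrays of the series, chosen by sample title. These were 2 arrays each of KD dry, KD 16DAF, WT dry and WT 16DAF seeds. The other 4 arrays, KD and WT at 14DAF, entered the fit for the spread between replicates only, except where their levels are given. An interaction above 0 means that the transcript rose more, or fell less, in KD than in WT.

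All seeds were of the Wassilewskija (WS) accession and came from plants grown on soil in a greenhouse under long days. Seeds were dissected out of siliques whose flowers had been marked, and each RNA extraction pooled a large number of seeds. Dry seeds were collected mature after desiccation. KD is described as a mutant of altered lysine metabolism, with a citation of Zhu and Galili. That work joined a knockout of LKR/SDH, which starts lysine breakdown, to a bacterial, lysine-insensitive dihydrodipicolinate synthase made in the seed. The labels do not spell out KD or say which of these changes its seeds carried. They name 2 repeats per stage without saying whether these were separate plants or harvests. The spread behind each p-value is that between these samples and may be technical.

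As a seed matures it first lays down storage protein and oil, then loses its green plastids and most of its water. Late embryogenesis abundant (LEA) proteins and small heat shock proteins are known to accumulate towards the dry state, and transcripts present in the dry seed are stored until germination. Lysine is made from aspartate in the plastid, in a pathway that also yields threonine, methionine and, from methionine, S-adenosylmethionine.

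LKR/SDH (AT4G33150), the first enzyme of lysine breakdown, was read in each array as a check on the labels. Its log2 signal was 12.83 and 12.80 in KD dry seeds and 13.01 and 13.37 in KD 16DAF seeds. In WT it was 8.87 and 9.15 in dry seeds and 9.80 and 10.61 at 16DAF. All 4 KD arrays lay above all 4 WT arrays. Its interaction was 0.82 (SE 0.378, adjusted p = 0.379). The source name of WT 16DAF replicate 1 and of KD dry replicate 1 gives the other genotype than their titles, and LKR/SDH in these arrays, at 9.80 and 12.83, lay with the titles. The position of this probe set in the gene relative to a mutation is not stated, so its signal is no check of a knockout.

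Replicate arrays correlated at r = 0.993 in KD dry, 0.991 in KD 16DAF, 0.993 in WT dry and 0.983 in WT 16DAF. The 3' minus 5' log2 signal of the plant control transcripts, which reflects RNA integrity and labelling, averaged 2.46 ± 0.138, 2.64 ± 0.212, 2.44 ± 0.117 and 2.97 ± 0.546 in the same groups (SD, n = 2). It differed most between the WT 16DAF arrays, at 2.59 and 3.36, and its part in the results was not tested. The seed label was checked by storage protein genes. AT1G03890, a cruciferin-like cupin, measured 11.88 and 12.50 in KD dry and 13.55 and 13.64 in KD 16DAF seeds, against 12.12 and 12.21 in WT dry and 13.82 and 13.83 in WT 16DAF seeds, which is bright in all 8 arrays.

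The change on drying differed between KD and WT at 313 of 22746 probe sets, which is 1.38% of those tested (limma, adjusted p under 0.05). The interaction was above 0 at 174 of them (0.765%) and below 0 at 139 (0.611%). Its absolute size ran from 0.80 to 5.62 on the log2 scale. The median over all probe sets was 0.01. Of the 313, the annotation gives 1 gene for 142, several for 9 and none for 162. Over all 22746 probe sets tested, these counts were 13513, 503 and 8730. In 39 of the 313 the brightest of the 4 groups averaged below log2 6, and array lower quartiles lay between 3.67 and 3.78, so changes that start or end near log2 4 have an uncertain size.

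**Figure D1:**
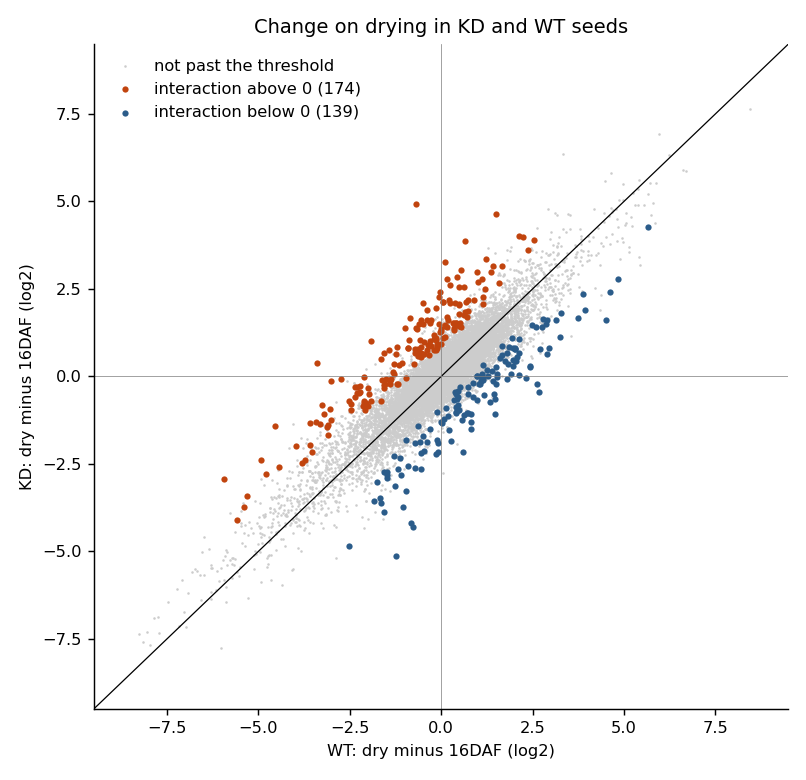
Log2 change from 16DAF to dry seed in KD (vertical axis) against WT (horizontal axis). Each point is a probe set, and the line marks equal change. The 174 probe sets with an interaction above 0 lie above the line and the 139 below 0 lie under it. Most of the others follow the line.

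A minority of these probe sets were called in opposite directions in the drying tests of KD and WT. Among the 174 with an interaction above 0, 57 rose in KD only, 33 fell in WT only, 34 fell in KD and in WT, 29 rose in KD and in WT, and 21 rose in KD but fell in WT. Among the 139 below 0, 38 rose in WT only, 32 rose in KD and in WT, 28 fell in KD and in WT, 21 fell in KD only and 20 fell in KD but rose in WT. Over all probe sets 34.9% were called in KD drying and 37.3% in WT drying. These calls share arrays with the interaction, so the counts describe how the interaction arose. Here "only" means that the other genotype missed the test, which does not show that its level held still. More probe sets may thus have moved in opposite directions than were called so.

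The same probe sets were sorted by the stage at which KD and WT differed. Of the 174 above 0, 99 were higher in KD in dry seeds and passed no test at 16DAF, and 57 were lower in KD at 16DAF and passed none in dry seeds. Of the 139 below 0, 65 were higher in KD at 16DAF only and 52 were lower in KD in dry seeds only. The genotypes differed at both stages in opposite directions in 8 and 13 probe sets of these sets. The KD minus WT test passed at 11.1% of all probe sets at 16DAF and at 7.91% in dry seeds, and it too shares its arrays with the interaction. With 1 array left out the 99 became 21 to 102 and the 57 became 11 to 104, and the 65 became 18 to 95 and the 52 became 12 to 62. Without WT 16DAF replicate 2 the classes above 0 held 102 in dry seeds and 104 at 16DAF, so their order was not stable. Missing the test at a stage does not show that KD and WT were alike there.

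The number of calls changed with the arrays left out. A group cut to 1 array gives a larger SE and fewer residual degrees of freedom. The part of this in the counts was not tested. A kept sign is no test of stability, because a call needs an interaction larger than the shift that leaving out 1 array can bring. With any 1 of the 8 arrays left out, all 313 kept the sign of their interaction, and 57 passed in each of the 8 fits. The total was 86 and 72 without KD dry replicate 1 or 2, 99 and 106 without KD 16DAF replicate 1 or 2, and 98 and 110 without WT dry replicate 1 or 2. It was 272 without WT 16DAF replicate 1 and 425 without WT 16DAF replicate 2. With both arrays of conflicting source names left out it was 69, of which 64 were among the 313. In that fit psbJ, AT5G19730, AT5G14450, AT4G31000, AT1G72060, XTH16, AT1G72500, AUR2 and AT1G55450, did not pass (adjusted p 0.0528 to 0.181).

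**Figure D2:**
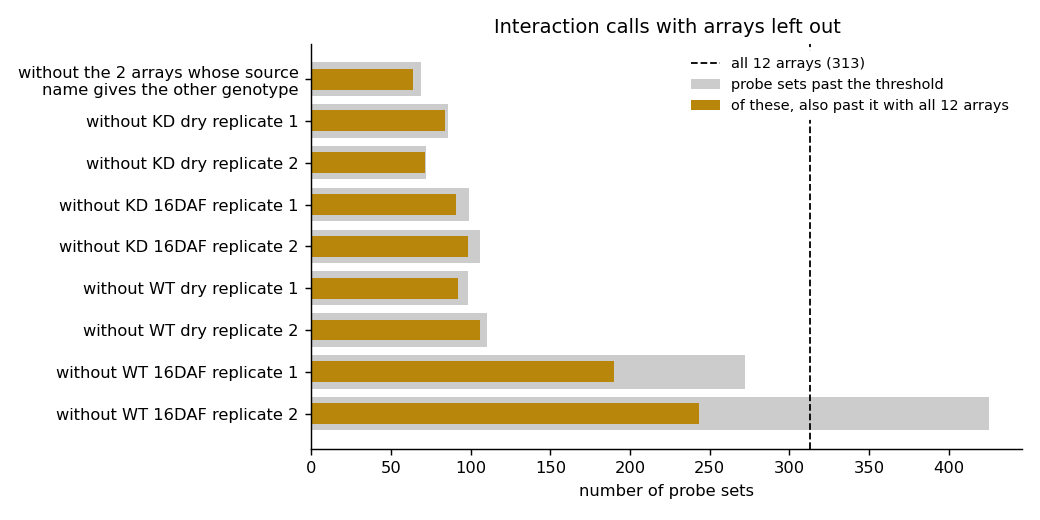
Number of probe sets past the threshold for the interaction (horizontal axis) when the array or arrays named on the vertical axis were left out. Wide grey bars count all calls and narrow gold bars those also called with all 12 arrays, and the dashed line marks 313. The total lies between 72 and 110 without a KD array or a WT dry array, and at 272 and 425 without a WT 16DAF array.

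Several transcripts were higher in dry KD seeds than in any of the other 3 groups. PDF1.4 (AT1G19610), which encodes a defensin-like peptide of the family of small cysteine-rich antimicrobial proteins, had the largest interaction above 0 among genes with a name. Its log2 signal was 9.31 and 9.25 in KD dry seeds and 4.81 and 4.48 in KD 16DAF seeds, against 6.24 and 5.53 in WT dry and 4.26 and 4.53 in WT 16DAF seeds. It rose in KD and in WT, and the KD dry arrays lay above all others. The interaction was 3.15 (SE 0.330, adjusted p = 0.00383), and KD was 3.40 higher than WT in dry seeds (adjusted p = 6.51e-05).

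AT1G22890 measured 5.40 and 5.63 in KD dry and 2.78 and 3.0 in KD 16DAF seeds, against 3.15 and 2.89 in WT dry and 2.77 and 2.77 in WT 16DAF seeds. Outside KD dry seeds it stayed at the dim end of the arrays. Its interaction was 2.38 (SE 0.211, adjusted p = 0.00204). KINESIN-12B (AT3G23670), a motor protein of the phragmoplast, the structure that builds the new wall in a dividing plant cell, showed the same shape. It measured 6.36 and 6.33 in KD dry and 3.94 and 3.64 in KD 16DAF seeds, against 4.08 and 3.98 in WT dry and 3.62 and 3.49 in WT 16DAF seeds. The interaction was 2.08 (SE 0.195, adjusted p = 0.00217). PDF1.4, AT1G22890 and KINESIN-12B each passed with any 1 array left out.

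AT1G72060, a predicted protease inhibitor, measured 6.73 and 7.50 in KD dry and 3.55 and 4.60 in KD 16DAF seeds, against 4.17 and 4.16 in WT dry and 3.58 and 3.67 in WT 16DAF seeds (interaction 2.50, SE 0.473, adjusted p = 0.0353). AT1G55450, a predicted S-adenosylmethionine-dependent methyltransferase, measured 6.27 and 6.27 in KD dry and 3.42 and 4.60 in KD 16DAF seeds, against 3.49 and 3.55 in WT dry and 3.44 and 3.74 in WT 16DAF seeds (2.33, SE 0.463, adjusted p = 0.0425). In these genes the KD 16DAF arrays differed by over 1 log2 unit, and the KD dry arrays still lay above every other array. AT2G32150, a hydrolase of the haloacid dehalogenase family, measured 9.28 and 9.49 in KD dry and 7.89 and 8.10 in KD 16DAF seeds, against 7.62 and 7.61 in WT dry and 7.83 and 8.80 in WT 16DAF seeds (2.09, SE 0.414, adjusted p = 0.0421). These 3 calls were less stable. AT1G72060 and AT1G55450 passed without KD 16DAF replicate 2 but with no other array left out (adjusted p 0.0521 to 0.139 and 0.0534 to 0.152). AT2G32150 passed without WT 16DAF replicate 1 or 2 but not without any 1 of the other 6 arrays (0.102 to 0.167).

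In other genes the WT level dropped on drying while the KD level did not. EXGT-A3 (AT2G01850, also XTH27), a xyloglucan endotransglucosylase that cuts and rejoins cell wall xyloglucan, measured 8.85 and 8.77 in KD dry and 8.76 and 8.88 in KD 16DAF seeds, against 6.81 and 6.49 in WT dry and 8.47 and 9.07 in WT 16DAF seeds. The KD change was -0.01 (adjusted p = 0.977), whereas WT fell by 2.12, and the interaction was 2.11 (SE 0.273, adjusted p = 0.00793). AT3G09440, a cytosolic HSP70 chaperone, moved in opposite directions. It measured 9.16 and 9.63 in KD dry and 7.75 and 8.27 in KD 16DAF seeds, against 6.63 and 6.57 in WT dry and 7.38 and 7.78 in WT 16DAF seeds. It rose by 1.39 in KD and fell by 0.98 in WT (interaction 2.37, SE 0.310, adjusted p = 0.00828). Both genes passed with any 1 array left out.

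A second shape had its gap at 16DAF. AT2G39210, a predicted membrane transporter of the major facilitator type, measured 7.27 and 7.64 in KD dry and 5.87 and 6.04 in KD 16DAF seeds, against 7.93 and 7.93 in WT dry and 8.51 and 8.55 in WT 16DAF seeds. At 14DAF it was dim in each genotype, at 3.84 and 4.0 in KD and 3.53 and 3.12 in WT. Its KD level was thus still between the 14DAF and dry levels at 16DAF, when the WT level was already at its highest. The interaction was 2.10 (SE 0.244, adjusted p = 0.00514), and it passed with any 1 array left out.

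XTH16, another xyloglucan endotransglucosylase, measured 3.86 and 3.79 in KD dry and 4.79 and 4.52 in KD 16DAF seeds, against 3.37 and 4.17 in WT dry and 7.48 and 6.57 in WT 16DAF seeds (interaction 2.43, SE 0.432, adjusted p = 0.0284). AT4G31000, a predicted calmodulin-binding protein, measured 4.53 and 4.67 in KD dry and 5.13 and 5.95 in KD 16DAF seeds, against 4.33 and 3.99 in WT dry and 7.15 and 7.23 in WT 16DAF seeds (2.09, SE 0.404, adjusted p = 0.0378). In each the WT 16DAF arrays stood above all others and the dry arrays of KD and WT were close. XTH16 did not pass without any of the 4 KD arrays or without WT dry replicate 1 (adjusted p 0.0738 to 0.108), and AT4G31000 passed only without KD 16DAF replicate 2 (0.0563 to 0.152 in the other 7 fits). AT2G21630, a predicted vesicle coat protein of the Sec23/Sec24 family, crossed over. It measured 7.71 and 7.71 in KD dry and 5.85 and 5.76 in KD 16DAF seeds, against 6.48 and 6.55 in WT dry and 7.23 and 6.59 in WT 16DAF seeds, and its interaction of 2.30 (SE 0.279, adjusted p = 0.00552) passed with any 1 array left out.

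**Figure D3:**
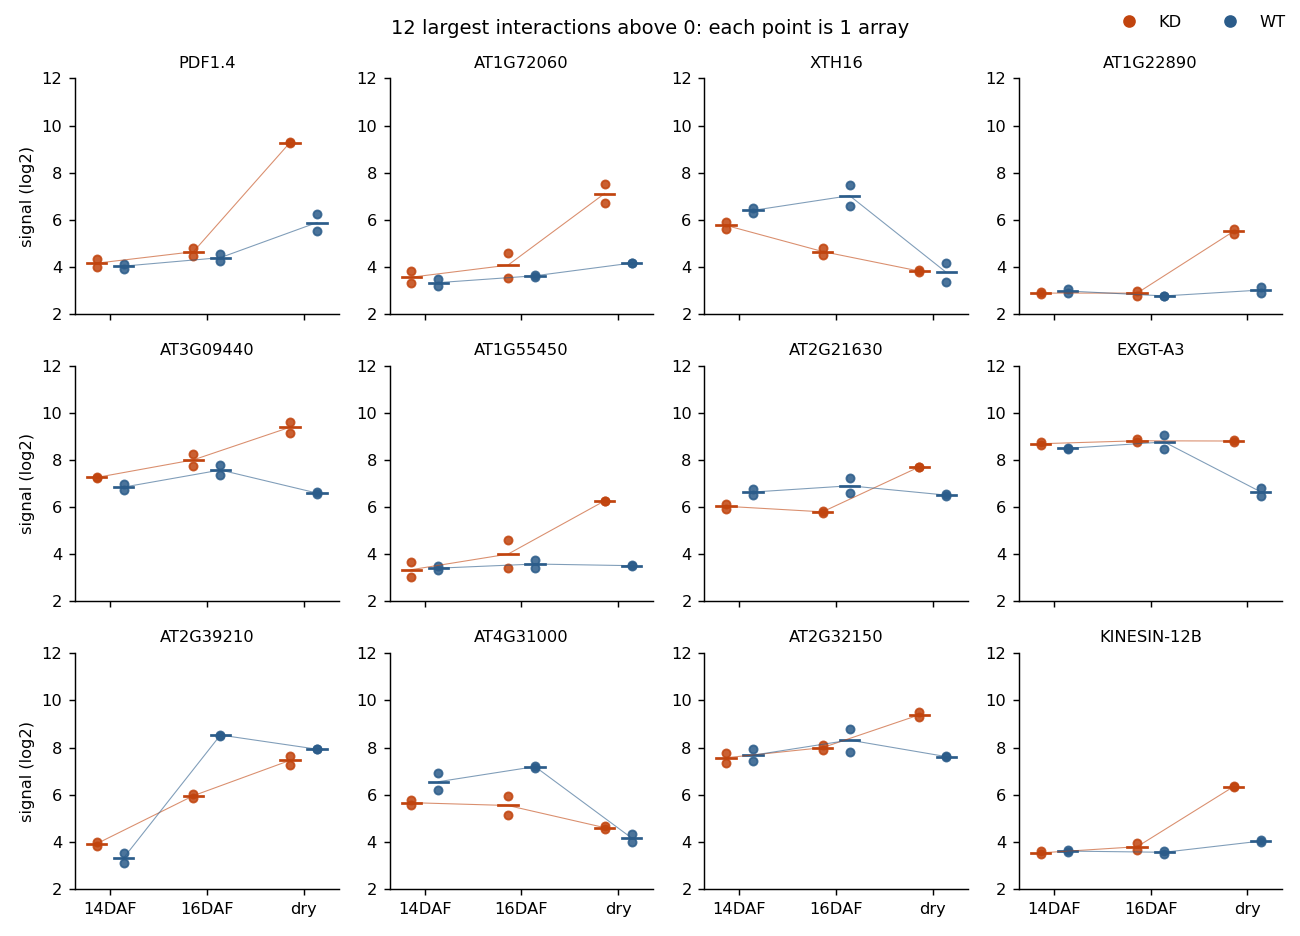
Log2 signal (vertical axes) at 14DAF, 16DAF and in dry seeds (horizontal axes) of the 12 genes with the largest interactions above 0, with KD in orange left of WT in blue. Each point is 1 array, bars are means of 2 arrays and thin lines join the means. PDF1.4, AT1G22890 and KINESIN-12B are high in dry KD seeds, while XTH16 and AT4G31000 are high in WT 16DAF seeds.

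The largest interaction below 0 was that of AT1G71691, a GDSL-type lipase. It measured 4.94 and 5.23 in KD dry and 9.92 and 10.50 in KD 16DAF seeds, against 4.84 and 5.45 in WT dry and 6.75 and 6.04 in WT 16DAF seeds. At 14DAF it was bright in each genotype, at 11.49 and 11.17 in KD and 10.65 and 11.36 in WT. The dry levels overlapped, and the KD 16DAF arrays alone lay above the WT ones. KD fell by 5.13 on drying and WT by 1.25, so the interaction was -3.88 (SE 0.460, adjusted p = 0.00523). AT5G19730, a predicted pectin methylesterase, had the same shape, at 3.66 and 3.92 in KD dry and 7.32 and 7.70 in KD 16DAF seeds, against 3.63 and 4.37 in WT dry and 5.06 and 5.02 in WT 16DAF seeds (-2.68, SE 0.389, adjusted p = 0.0123). AT1G71691 passed with any 1 array left out. AT5G19730 did not without KD dry replicate 1 (adjusted p = 0.0571) or KD 16DAF replicate 2 (0.0512).

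AT1G68670, a MYB-like transcription factor of the GARP family, measured 8.48 and 8.52 in KD dry and 8.99 and 8.43 in KD 16DAF seeds, against 8.65 and 8.08 in WT dry and 5.68 and 5.80 in WT 16DAF seeds. It was also higher in KD at 14DAF, at 8.60 and 8.79 against 6.09 and 5.75 in WT. WT rose by 2.63 on drying to the KD level, and KD changed by -0.21 (adjusted p = 0.546). The interaction was -2.84 (SE 0.322, adjusted p = 0.00457). AT5G20080, a predicted NADH-cytochrome b5 reductase, measured 4.65 and 4.82 in KD dry and 6.90 and 6.89 in KD 16DAF seeds, against 5.21 and 4.96 in WT dry and 5.34 and 4.99 in WT 16DAF seeds (-2.08, SE 0.275, adjusted p = 0.00828). Both calls stood with any 1 array left out.

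Of 3 measured seed coat markers, 1 differed between KD and WT at 16DAF, against 11.1% of all probe sets. The summed linear signal of the 3, of 17 in the list, was 48.9 to 51.2 in KD dry and 259 to 315 in KD 16DAF seeds, against 47.4 to 54.3 in WT dry and 154 to 158 in WT 16DAF seeds. DELTA-VPE, a protease active in the developing seed coat, was higher in KD at 16DAF by 1.86 (adjusted p = 0.0267), while its interaction of -1.87 did not pass (adjusted p = 0.223). BAN and DFR, enzymes of the tannin pathway, differed by 0.10 (adjusted p = 0.936) and -0.05 (adjusted p = 0.939) between KD and WT at 16DAF and had interactions of -0.12 and 0.05, none of which passed. In these seed samples a smaller share of coat tissue and less RNA per cell cannot be told apart, and the part of the DELTA-VPE shift in the results was not tested.

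Other genes crossed over between the stages. AT5G15950, an S-adenosylmethionine decarboxylase of polyamine synthesis, measured 5.15 and 5.99 in KD dry and 9.59 and 9.91 in KD 16DAF seeds, against 6.63 and 6.90 in WT dry and 7.75 and 7.42 in WT 16DAF seeds. The KD minus WT difference was 2.17 at 16DAF (adjusted p = 0.000899) and -1.20 in dry seeds (adjusted p = 0.0194). Its interaction of -3.36 (SE 0.364, adjusted p = 0.00389) was the second largest below 0 among genes with a name. AUR2 (AT2G25880), an Aurora kinase of cell division, measured 6.39 and 6.75 in KD dry and 7.39 and 7.91 in KD 16DAF seeds, against 7.57 and 8.00 in WT dry and 6.27 and 6.38 in WT 16DAF seeds (-2.54, SE 0.303, adjusted p = 0.00523). It fell in KD and rose in WT. AT5G14500, a predicted aldose 1-epimerase, measured 4.5 and 4.63 in KD dry and 8.63 and 8.23 in KD 16DAF seeds, against 5.81 and 5.32 in WT dry and 7.35 and 6.90 in WT 16DAF seeds (-2.31, SE 0.307, adjusted p = 0.00828). These 3 passed with any 1 array left out. AUR2 did not with both arrays of conflicting source names left out (-2.31, adjusted p = 0.0528).

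The last genes were lower in dry KD than in dry WT seeds, by a larger rise in WT or by a fall in KD. AT4G23493, a gene of unstated function, measured 4.47 and 4.38 in KD dry and 3.74 and 3.82 in KD 16DAF seeds, against 6.74 and 6.71 in WT dry and 3.83 and 3.84 in WT 16DAF seeds (-2.25, SE 0.179, adjusted p = 0.00192). AT1G72500 measured 4.32 and 4.29 in KD dry and 4.11 and 3.97 in KD 16DAF seeds, against 5.95 and 6.58 in WT dry and 4.06 and 3.62 in WT 16DAF seeds (-2.16, SE 0.322, adjusted p = 0.0131). In each the WT dry arrays stood alone above the dim end of the arrays. The serine carboxypeptidase gene scpl26 (AT2G35780) measured 5.31 and 5.17 in KD dry and 6.64 and 6.82 in KD 16DAF seeds, against 7.0 and 6.84 in WT dry and 6.26 and 5.93 in WT 16DAF seeds (-2.32, SE 0.283, adjusted p = 0.00572). On drying scpl26 fell by 1.49 in KD and rose by 0.825 in WT. At 14DAF it was brighter, at 7.68 and 7.92 in KD and 8.81 and 9.38 in WT, and already lower in KD (-1.295, adjusted p = 0.00482).

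AT5G14450, another GDSL-type lipase, measured 7.51 and 7.32 in KD dry and 8.91 and 8.53 in KD 16DAF seeds, against 9.24 and 8.54 in WT dry and 8.06 and 8.10 in WT 16DAF seeds (-2.12, SE 0.323, adjusted p = 0.0152). It fell by 1.305 on drying in KD and rose in WT, and at 14DAF it measured 7.91 and 8.27 in KD and 8.96 and 9.08 in WT. The plastid gene psbJ, for a small subunit of photosystem II, measured 8.55 and 8.80 in KD dry and 9.28 and 9.36 in KD 16DAF seeds, against 10.17 and 9.48 in WT dry and 8.32 and 8.36 in WT 16DAF seeds (-2.13, SE 0.402, adjusted p = 0.0353). In these 2 genes the dry arrays of KD and WT did not overlap. AT4G23493 and scpl26 passed with any 1 array left out. AT1G72500 and AT5G14450 did not without either KD dry array or KD 16DAF replicate 1 (adjusted p 0.0555 to 0.0688 and 0.054 to 0.0769), and psbJ passed only without WT dry replicate 2 or WT 16DAF replicate 2 (0.0612 to 0.127 in the other 6 fits).

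**Figure D4:**
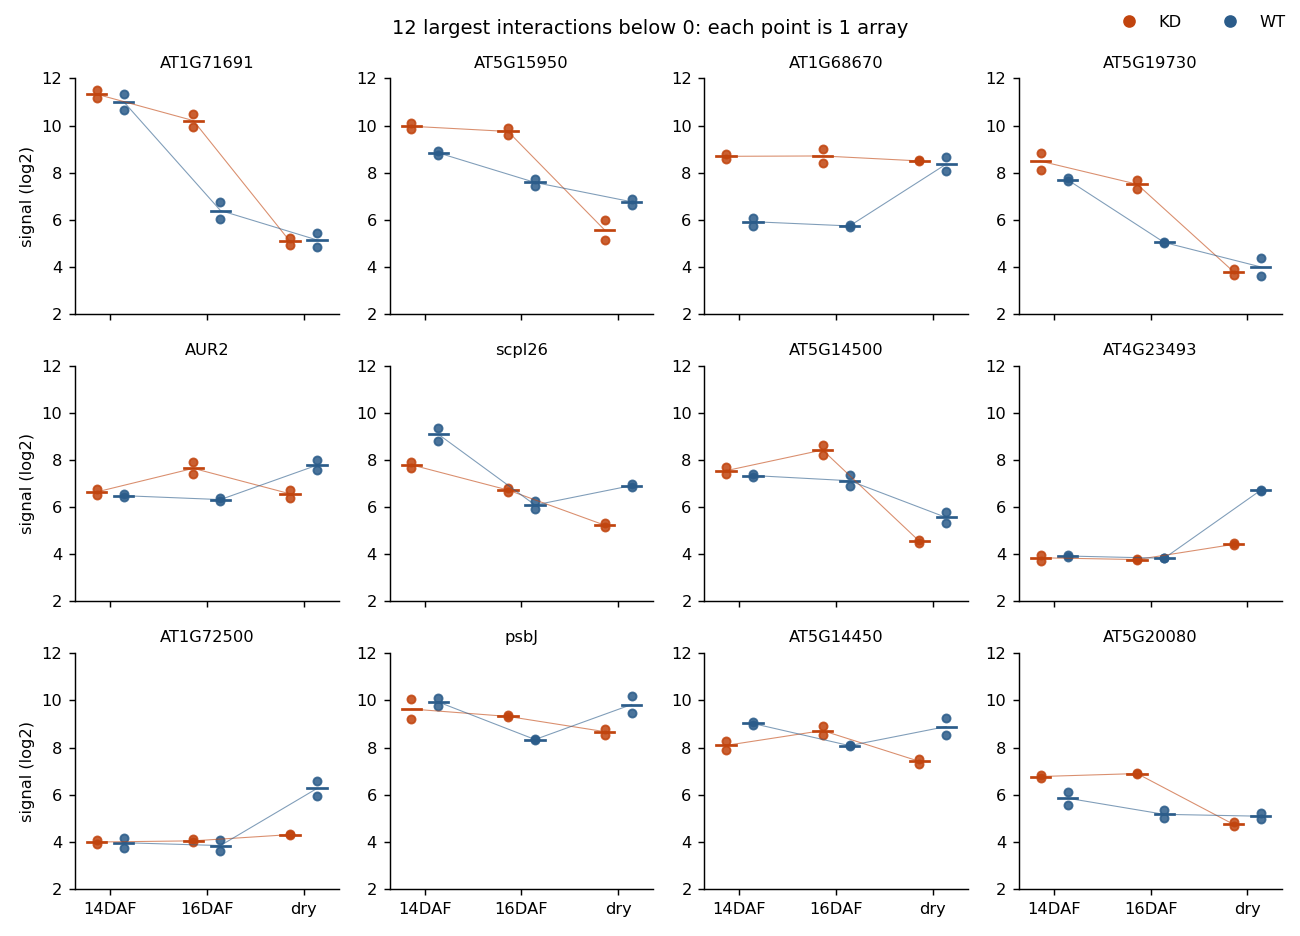
Log2 signal (vertical axes) at 14DAF, 16DAF and in dry seeds (horizontal axes) of the 12 genes with the largest interactions below 0, with KD in orange left of WT in blue. Each point is 1 array, bars are means of 2 arrays and thin lines join the means. AT1G71691 starts and ends together in KD and WT and differs at 16DAF, while AT4G23493 and AT1G72500 are high in dry WT seeds.

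The 14DAF arrays gave the earlier levels of the same probe sets. Their levels do not enter the interaction, but their spread enters every call. The 14DAF test is therefore not independent of how these probe sets were chosen. Of the 65 probe sets higher in KD at 16DAF only, 35 were already higher in KD at 14DAF and 0 were lower, with a median KD minus WT difference of 0.76 (1.46 at 16DAF). Of the 57 lower in KD at 16DAF only, 21 were lower at 14DAF and 1 was higher, with a median of -0.56 (-1.15 at 16DAF). Of the 99 higher in dry KD seeds only, 6 were higher and 8 lower at 14DAF, and of the 52 lower in dry KD seeds only, 1 was higher and 4 were lower. Over all probe sets 3.35% were higher and 3.92% lower in KD at 14DAF. With any 1 of the KD or WT 14DAF arrays left out, the median 14DAF difference of the 65 ran from 0.66 to 0.775. That of the 57 ran from -0.58 to -0.50. Fewer of them passed the 14DAF test in these fits, as did fewer of all probe sets.

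**Figure D5:**
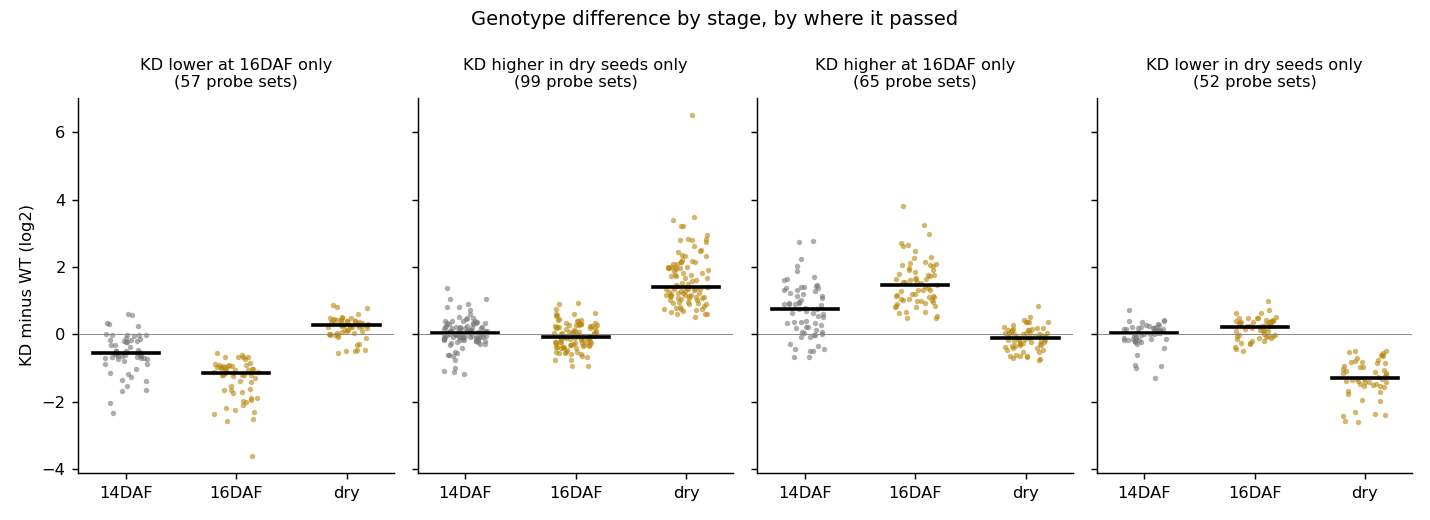
KD minus WT difference (log2, vertical axis) at 14DAF, 16DAF and in dry seeds (horizontal axis) for probe sets with a called interaction, in panels by the stage at which the genotypes differed. Points are probe sets and bars are medians. Gold points use the arrays whose differences set the panel. The 14DAF arrays of the grey points entered that choice through the spread only. At 14DAF the medians are -0.56 and 0.76 in the panels chosen at 16DAF, and 0.05 and 0.03 in those chosen in dry seeds.

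Heat shock genes held 2 of the called interactions. Of 10 measured members, of 25 in the list, 2 had a called interaction above 0 and 0 below, against 0.765% and 0.611% of all probe sets. The median of the list was 0.14, and these counts cover listed members only. On drying 8 of the 10 rose and 0 fell in KD, and 8 rose and 2 fell in WT, while the shares of the whole array that rose and fell were 19.6% and 15.3% in KD and 20.4% and 16.9% in WT. The 2 that passed were the HSP70 gene AT3G09440 and its relative Hsp70-2 (AT5G02490), which is named here after its values were seen. Hsp70-2 measured 6.05 and 5.91 in KD dry and 6.36 and 6.12 in KD 16DAF seeds, against 5.01 and 4.76 in WT dry and 6.32 and 6.60 in WT 16DAF seeds (1.32, SE 0.220, adjusted p = 0.0217). Members of this family are alike in sequence, so a signal shared between their probe sets is possible and was not tested. Hsp70-2 passed without WT 16DAF replicate 1 (adjusted p = 0.0235) or 2 (0.0416), and did not without any 1 of the other 6 arrays (0.0507 to 0.0885).

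At 16DAF 0 of the 10 heat shock genes were higher and 4 lower in KD, over all probe sets 5.22% and 5.88%, and in dry seeds 2 were higher and 4 lower, over all 4.01% and 3.9%. The small heat shock gene AT1G54050 measured 9.60 and 8.68 in KD dry and 4.35 and 4.38 in KD 16DAF seeds, against 11 and 9.92 in WT dry and 6.60 and 8.50 in WT 16DAF seeds. AT1G53540, another of this family, measured 8.81 and 8.42 in KD dry and 4.95 and 5.58 in KD 16DAF seeds, against 11.57 and 11.89 in WT dry and 6.07 and 7.62 in WT 16DAF seeds. KD was lower at 16DAF in each, with a KD minus WT difference of -3.19 (adjusted p = 0.00479) and -1.58 (adjusted p = 0.0391). The WT 16DAF arrays lay far apart, and the interactions of 1.87 and -1.54 did not pass (adjusted p = 0.314 and 0.285). AT1G54050 (2.82, adjusted p = 0.0443) and the DnaJ gene AT2G20560 (1.80, adjusted p = 0.0254, against 0.0532 with all arrays) passed without WT 16DAF replicate 1, and AT1G53540 passed without WT 16DAF replicate 2 (-2.31, adjusted p = 0.0246). The list median was 0.81 without WT 16DAF replicate 1, with 4 members called above 0, and -0.35 without WT 16DAF replicate 2, with 2 above and 2 below.

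LEA genes gave 0 called interactions among 38 measured of 56, and with 1.38% called over all probe sets a count of 0 in a list of this size does not set it apart. On drying 19 rose and 3 fell in KD (19.6% and 15.3% of all), and 16 rose and 4 fell in WT (20.4% and 16.9% of all). The median interaction was -0.01, against 0.01 over all probe sets, and ran from -0.08 to 0.17 with 1 array left out, the highest without WT 16DAF replicate 1. LEA4-5 measured 13.0 and 12.7 in KD dry and 11.5 and 12.02 in KD 16DAF seeds, against 13.13 and 12.90 in WT dry and 10.02 and 11.11 in WT 16DAF seeds. Its interaction was -1.36 (SE 0.427, adjusted p = 0.177), and it passed without WT 16DAF replicate 2 (-1.91, adjusted p = 0.0178). COR47, a dehydrin, had the largest interaction above 0 in the list, at 1.47 (SE 0.323, adjusted p = 0.0601).

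Genes around lysine and amino acid use gave 0 called interactions. With 1.38% called over all probe sets, a count of 0 in lists of this size does not set them apart. Among 15 measured of 35 genes of amino acid catabolism, 6 rose and 3 fell in KD (19.6% and 15.3% of all probe sets), and 4 rose and 5 fell in WT (20.4% and 16.9%). The median interaction was 0.27, and 0.04 without KD dry replicate 2. In dry seeds 5 of the 15 were higher in KD and 0 lower, over all probe sets 4.01% and 3.9%. The list holds LKR/SDH itself, which is 1 of these 5 (KD minus WT 3.805, limma adjusted p = 7.37e-05). MCCB, a subunit of methylcrotonyl-CoA carboxylase in leucine breakdown, measured 10.03 and 9.69 in KD dry and 6.48 and 6.64 in KD 16DAF seeds, against 8.72 and 8.43 in WT dry and 5.73 and 6.60 in WT 16DAF seeds. Its interaction of 0.89 (SE 0.389) did not pass, nor did that of IVD, isovaleryl-CoA dehydrogenase of the same pathway (1.10, SE 0.365, adjusted p = 0.204). KD lay above WT in dry seeds in each of these 2, by 1.29 (adjusted p = 0.0189) and 1.35 (adjusted p = 0.011). The proline dehydrogenase gene AT5G38710 had an interaction of 1.54 (adjusted p = 0.12), and it passed without WT 16DAF replicate 1 (1.92, adjusted p = 0.0473). In the aspartate family 7 of 35 genes were measured, with a median of -0.34, which was 0.02 without KD 16DAF replicate 2 and -0.17 without WT 16DAF replicate 1. The TCA cycle and pyruvate dehydrogenase list had 20 probe sets of 19 genes, with a median of -0.08, or 0.02 without WT 16DAF replicate 1.

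SDH2-1, the iron-sulfur subunit of succinate dehydrogenase, came closest in the TCA list. The brighter of its 2 probe sets measured 8.44 and 8.63 in KD dry and 8.60 and 9.03 in KD 16DAF seeds, against 6.57 and 6.48 in WT dry and 7.67 and 7.73 in WT 16DAF seeds. WT fell by 1.18 while the KD change was -0.28, and the interaction was 0.90 (SE 0.227, adjusted p = 0.0994). The other probe set of this gene was dim in all arrays, with an interaction of -0.11.

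Nuclear photosynthesis and chlorophyll genes had 0 called interactions among 13 measured of 77. With 1.38% called over all probe sets, this count does not set the list apart. The median interaction was -0.35. This median was -0.66 without WT dry replicate 2 and -0.07 without WT dry replicate 1. The geranylgeranyl reductase gene AT1G74470, whose product makes the side chain of chlorophyll, had the largest value, -2.35 (SE 0.650, adjusted p = 0.128). It measured 4.63 and 4.03 in KD dry and 6.09 and 6.41 in KD 16DAF seeds, against 5.18 and 4.44 in WT dry and 4.33 and 4.43 in WT 16DAF seeds. KD was higher at 16DAF and the dry arrays overlapped.

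Genes of the plastid genome itself, grouped after their values were seen, had 2 of 69 probe sets called below 0 (0.611% of all) and 0 above (0.765% of all). The 2 were psbJ and the ribosomal protein gene rpl33 (-1.44, SE 0.271, adjusted p = 0.0353). The median interaction of the 69 was -0.48, from -0.65 to -0.34 over the fits with 1 array left out, and -0.50 and -0.54 with arrays centred or quantile-normalized. On drying 12 of the 69 rose and 15 fell in KD (19.6% and 15.3% of all probe sets), and 28 rose and 10 fell in WT (20.4% and 16.9%). In dry seeds 0 were higher and 19 lower in KD, against 4.01% and 3.9% of all. At 16DAF 1 was higher and 5 were lower, against 5.22% and 5.88% of all. Neither called member passed without KD dry replicate 1 or 2, KD 16DAF replicate 1 or 2 or WT dry replicate 1, and rpl33 passed only without WT 16DAF replicate 2 (adjusted p 0.0512 to 0.141 in the other 7 fits). For psbJ the range over the 6 fits in which it did not pass was 0.0612 to 0.127.

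Reserve genes gave 0 called interactions, against 1.38% of all probe sets. A count of 0 does not set lists this small apart. FaTA, an acyl-ACP thioesterase of oil synthesis, fell by 4.17 in KD and by 3.97 in WT. The glyoxylate cycle gene ICL rose by 1.75 in KD and by 1.73 in WT, with an interaction of 0.02 (SE 0.226). OLEO3, an oleosin of the oil body surface, fell by 3.26 in KD and by 2.44 in WT (-0.83, SE 0.361, adjusted p = 0.352). Median interactions were 0.07 for 7 storage protein genes, 0.38 for 3 of oil synthesis, -0.06 for 4 of oil bodies, 0.25 for 3 of reserve mobilisation and -0.53 for 5 of ER folding and vacuolar processing. They were 0.50 for 3 sugar starvation genes, 0.08 for 2 seed regulators and -0.32 for the 1 antioxidant gene measured. These medians rest on few genes and moved with single arrays. The oil synthesis median was 0.02 without WT 16DAF replicate 1, that for sugar starvation 0.16 and 0.85 without KD dry replicate 2 or 1, and that for ER folding -0.27 without KD dry replicate 2. That for reserve mobilisation was 0.11 and 0.52 without WT 16DAF replicate 2 or 1, that for storage proteins -0.06 and 0.19 and that for oil bodies -0.22 and 0.10 without KD dry replicate 2 or 1. In the expansin and xyloglucan endotransglucosylase list, 1 of 9 measured genes passed, XTH16, against 1.38% of all probe sets. The median was 0.10, from 0.04 without KD dry replicate 1 to 0.13 without KD 16DAF replicate 1. The list does not hold EXGT-A3, a gene of the same family that passed as given above. The 1 measured marker of silique wall and funiculus, ALC, had an interaction of 0.33 (adjusted p = 0.414). No member of the hormone list, the sucrose and raffinose list or the endosperm marker list was measured (0 each).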

How the data were processed

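The authors deposited log2 signals per probe set. The submitters' processing notes name RMA and Partek, with no version or setting, and do not say if all arrays were processed in a single run. The log2 scale was inferred from the values. RMA aligns the arrays, so a shift of all transcripts one way would be hidden. RNA was amplified before labelling, per the labels' protocols. No detection calls were used.

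Groups came from the sample titles, and for WT dry replicate 1 from the description. Of 22810 probe sets, 64 controls were left out. The platform annotation named 1 gene for 13513 and several for 503. It was matched to the TAIR10.1 gene table for 13436 probe sets. Roles of genes listed there by locus code alone are general background.

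Group means were fitted to all 12 arrays with limma 3.58.1 in R 4.3.3 (eBayes with no trend; degrees of freedom were 6 residual and 4.16 prior). P-values are two-sided and adjusted by Benjamini-Hochberg over 22746 probe sets, with a threshold of 0.05. SE is the model's standard error. The script was tested on simulated data. Figures were drawn with Python 3.11.15 and matplotlib 3.10.9.

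Genes named are the 12 largest interactions each way among called probe sets naming 1 gene, the 3 largest of each drying class, and from each of 20 gene lists (458 loci, 143 measured) up to 4 members with the largest absolute interaction. Not all list members are printed. The contrast and lists were chosen with earlier results of these data known.

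Same-numbered arrays did not deviate together in all groups (correlations of deviations from -0.33 to 0.42), so replicate numbers were not taken as pairs. The highest value, 0.42, was between KD 16DAF and WT 16DAF, so a replicate block was also run. The alternatives were each array left out in turn, the pair of arrays of conflicting source names left out, only the 8 arrays, a replicate block, median centring, quantile normalization, a trend in the variance, and a filter on dim probe sets at a mean of log2 5.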

Additional observations from a re-analysis of the deposited data

Results flagged for a closer look

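Each result here was marked because the change on drying differed between KD and WT. The test was that of the difference itself, the interaction term in limma. The change differed at 313 probe sets. Among the genes with a name, the interaction (log2) was above 0 in PDF1.4 (3.15), AT1G72060 (2.50), XTH16 (2.43), AT1G22890 (2.38), AT3G09440 (2.37), AT1G55450 (2.33), AT2G21630 (2.30), EXGT-A3 (2.11), AT2G39210 (2.10), AT4G31000 (2.09), AT2G32150 (2.09) and KINESIN-12B (2.08). It was below 0 in AT1G71691 (-3.88), AT5G15950 (-3.36), AT1G68670 (-2.84), AT5G19730 (-2.68), AUR2 (-2.54), scpl26 (-2.32), AT5G14500 (-2.31), AT4G23493 (-2.25), AT1G72500 (-2.16), psbJ (-2.13), AT5G14450 (-2.12) and AT5G20080 (-2.08). Of these 24 genes, 15 passed with any 1 of the 8 arrays left out. Groups of 2 arrays are too small for a check of single arrays that stand apart.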

How the results depend on the processing

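The 313 interaction calls (174 above 0, 139 below) numbered 72 to 425 with 1 array left out (37 to 234 above, 35 to 191 below). They numbered 69 without the arrays of conflicting source names (44 above, 25 below) and 176 from the 8 arrays alone (90 above, 86 below). With the replicate block they numbered 164 (94 above, 70 below), and the numbers are not known to pair the arrays. Of the 24 called genes named, psbJ (adjusted p = 0.0618) and AT2G32150 (0.0673) were not called with the block. Fewer arrays or residual degrees of freedom enter these fits. Centring, quantile normalization, the variance trend and the filter gave 309, 292, 268 and 254 calls. Quantile normalization gave 147 above and 145 below. KD minus WT calls with 1 array left out ran from 1019 to 2357 at 16DAF and from 612 to 2255 in dry seeds, against 2525 and 1800. Drying calls within KD or WT stayed within 1.5 times under every alternative. All 313 kept their sign under every alternative, with 249 of them tested under the filter. In the fits that leave arrays out this says little, because a call needs an interaction larger than the shift such a fit can bring. With 2 arrays a group, the number of arrays limits the precision.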

Other observations

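Of the 142 called probe sets with 1 gene, 23 passed with any 1 array left out, and 8 of these lie outside the naming rule and were singled out after their values were seen. PDF1.2, a plant defensin often used as a marker of jasmonate response, measured 5.82 and 5.65 in KD dry and 5.85 and 5.75 in KD 16DAF seeds, against 5.68 and 5.72 in WT dry and 3.91 and 3.87 in WT 16DAF seeds (-1.88, SE 0.169, adjusted p = 0.00204). At 14DAF it measured 5.64 and 5.69 in KD and 4.52 and 4.55 in WT (adjusted p = 0.00086), so WT was low at each developing stage. AT3G16530, a legume lectin family protein, measured 5.87 and 5.87 in KD dry and 4.01 and 4.53 in KD 16DAF seeds, against 3.65 and 3.75 in WT dry and 3.89 and 4.08 in WT 16DAF seeds (1.89, SE 0.240, adjusted p = 0.00737). AT5G16980 (1.86), AT2G39980 (2.00) and AT5G65660 (2.00) were also above 0, and AT1G30260 (-1.72), AT1G71000 (-1.44) and AT2G03540 (-2.04) below.

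Some called genes share a family or a pathway, and were picked after their values were seen. The neighbouring berberine bridge enzyme-like genes AT1G26410 (1.45, adjusted p = 0.0279) and AT1G26420 (2.06, adjusted p = 0.013) rose on drying in KD, with changes of 0.18 and 0.06 in WT. AT1G26410 passed without KD 16DAF replicate 2 or either WT 16DAF array (adjusted p 0.0737 to 0.101 in the other 5 fits), and AT1G26420 without either KD 16DAF or WT 16DAF array (0.0521 to 0.069 in the other 4). In ascorbate metabolism, VTC4, an enzyme of ascorbate synthesis, measured 5.75 and 5.68 in KD dry and 9.06 and 9.32 in KD 16DAF seeds, against 5.19 and 5.51 in WT dry and 6.83 and 7.24 in WT 16DAF seeds (-1.79, adjusted p = 0.0131). ATMDAR2, a monodehydroascorbate reductase that recycles it, measured 6.11 and 6.04 in KD dry and 5.54 and 5.89 in KD 16DAF seeds, against 4.76 and 4.59 in WT dry and 5.85 and 6.08 in WT 16DAF seeds (1.65, adjusted p = 0.0103). VTC4 did not pass without either KD dry array, KD 16DAF replicate 2 or WT dry replicate 2 (0.0541 to 0.0698), nor ATMDAR2 without KD dry replicate 1 (0.0521).

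Of the probe sets without a gene in the annotation, 251428_at had the largest interaction of all, 5.62 (SE 1.10, adjusted p = 0.04). It measured 10.14 and 10.25 in KD dry and 3.86 and 6.69 in KD 16DAF seeds, against 3.50 and 3.85 in WT dry and 3.40 and 5.35 in WT 16DAF seeds, and it passed only without KD 16DAF replicate 2 (0.0093) or WT 16DAF replicate 1 (0.0217), with 0.0559 to 0.151 otherwise. Probe set 245803_at (3.79, SE 0.441, adjusted p = 0.00514) measured 9.01 and 8.28 in KD dry and 8.42 and 8.09 in KD 16DAF seeds, against 5.51 and 5.36 in WT dry and 8.34 and 9.32 in WT 16DAF seeds. Probe set 248647_at (-3.53, SE 0.325, adjusted p = 0.0021) measured 5.36 and 5.48 in KD dry and 9.46 and 9.99 in KD 16DAF seeds, against 5.53 and 5.88 in WT dry and 6.61 and 6.36 in WT 16DAF seeds. Both 245803_at and 248647_at passed in each of the 8 fits.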
